A study of Mus musculus with 12 samples.

Results

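The genes described here are 10 nucleic acid sensors of innate immunity and their adaptors, chosen by name: Ifih1, Dhx58, Mavs, Zbp1, Aim2, Ifi204, Tlr3, Tlr7, Tlr9 and Unc93b1. Each matched 1 identifier among the 48795 genes that the deposited files list, and all 10 were among the 11228 genes with enough counts to be tested. RNA was sequenced from mouse bone marrow-derived macrophages (BMDMs), which are macrophages grown in culture from bone marrow cells with M-CSF. WT BMDMs (strain label C57BL/6) and Acod1-/- BMDMs (strain label C57BL/6NJ-Acod1em1(IMPC)J/J), per the study's methods from male mice of 7 to 11 weeks, each formed 3 groups of 2 libraries. The control group received neither PM nor OI. The PM group received particulate matter, the fine particles of polluted air, at 20 μg/cm2 for 24 hours. The OI+PM group received 4-octyl itaconate (OI), a derivative of itaconate that enters cells, at 0.25 mM for 2 hours before the same PM. No group received OI without PM, so an effect of OI alone cannot be told apart from its effect on PM-treated cells. Acod1 encodes the enzyme that makes itaconate. The deletion was carried by the whole mouse. The WT label names no substrain, and the study's methods give C57BL/6NJ for WT, the background that the Acod1-/- label names.

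Mammalian cells detect foreign or misplaced nucleic acid by its place and its form. In the cytosol, RIG-I-like receptors bind double-stranded RNA and signal through MAVS on mitochondria, while PYHIN proteins and cGAS bind DNA. In endosomes, Toll-like receptors (TLRs) bind RNA or DNA taken up from outside, which in macrophages includes material from engulfed cells and microbes. Many of these receptors are themselves induced by type I interferon, so a cell that has sensed nucleic acid or interferon can raise its own sensors.

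Promoter sequence was taken from RefSeq (GRCm38.p6), whose table held 5 of the 10 genes: Ifih1, Mavs, Aim2, Tlr3 and Tlr9. Dhx58, Zbp1, Ifi204, Tlr7 and Unc93b1 had no entry. The 150 bases before the annotated start are shown for 1 gene that rose with PM and fell with OI+PM (Ifih1), 1 that was flat (Mavs) and 1 that fell with PM (Tlr9), since these windows hold no annotated exon. Each is written 5′ to 3′ on the strand of its gene, with motif matches in capitals. The stretches are chr2:62646256-62646405 on the minus strand for Ifih1, chr2:131233913-131234062 on the plus strand for Mavs and chr9:106222448-106222597 on the plus strand for Tlr9.
Ifih1: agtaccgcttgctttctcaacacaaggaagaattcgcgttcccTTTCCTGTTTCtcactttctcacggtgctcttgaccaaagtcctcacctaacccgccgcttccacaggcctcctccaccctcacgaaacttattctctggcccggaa
Mavs: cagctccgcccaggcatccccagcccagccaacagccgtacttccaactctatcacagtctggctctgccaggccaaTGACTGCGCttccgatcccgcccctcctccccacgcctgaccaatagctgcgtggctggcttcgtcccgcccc
Tlr9: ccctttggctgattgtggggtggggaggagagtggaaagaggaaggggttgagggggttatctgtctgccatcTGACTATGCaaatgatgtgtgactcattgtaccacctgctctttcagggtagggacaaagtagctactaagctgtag

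The motifs were searched on both strands in the 250 bases before each start. The interferon-stimulated response element as GAAA, 2 bases of any kind and GAAA was in none of the 5 windows and in 2.98% of 32851 promoters. With a gap of 3 bases, a form added after the sequences were seen, it matched Ifih1 on the reverse strand, 107 to 97 bases before the start, and 2.38% of all promoters. The antioxidant response element as TGACNNNGC, the core bound by NRF2, matched Mavs 73 to 65 bases and Tlr9 77 to 69 bases before the start, and 10.2% of all promoters. The half-site AANNGAAA, whose letters also lie within the response element with the gap of 2, matched 1 of the 5 (Tlr3) and 21.3% of all promoters. The NF-κB form GGGA, 1 base of any kind and TTTCC also matched Tlr3 alone of the 5 and 0.356% of all promoters. The GAS element TTCNNNGAA matched none of the 5 and 7.02% of all promoters. Aim2 held none of these 6 motifs. A match describes the letters of a window and is not a measured binding site.

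The libraries held between 33616577 and 36817898 counts on genes. Acod1 served as a check of the labels. With PM it stood at 181.3 and 170.3 normalized CPM in WT and at 107.6 and 94.1 in the libraries labelled Acod1-/-, a difference of -0.80 in log2 (SE 0.20) that edgeR's test did not call (adjusted p = 0.0807). Which part of the gene the allele lacks is not given in the sources used here, so a count over the whole gene checks the label only in part. In its metabolite measurements, the study found itaconate after PM in WT but not in Acod1-/- BMDMs. Those measurements were not made on these libraries. Nnt, which carries a deletion in some C57BL/6 substrains, averaged 37.5 in WT control and 73.3 in Acod1-/- control, and Wdfy1, whose exons overlap Mrpl44, averaged 16.0 and 71.8. These values differ although the methods give 1 substrain, so genotype and substrain cannot be told apart in any comparison of Acod1-/- with WT. All 8 macrophage markers were well above the filter, while 0 of 5 T cell markers passed the filter (Cd3e and Cd3g at 0 in every library). The T cell list summed to between 0.229 and 0.374 in WT control and between 1.47 and 1.79 in WT OI+PM. In Acod1-/- it summed to between 0.301 and 0.305 in control and between 0.739 and 0.872 with OI+PM. Lck, at up to 1.52, was the largest part of the WT OI+PM sums. Cd247 reached at most 0.449 and Cd3d at most 0.0338 in any library, so these sums do not show a change in T cells. The summed macrophage markers ranged from 14547 to 14889 normalized CPM in control, from 23242 to 27239 with PM and from 14376 to 16491 with OI+PM. Lyz2, at 9084 to 21225, was the largest part of these sums, so they do not show how each marker moved. Adgre1 (879.5), Mertk (25.9) and Mrc1 (44.1) were each at their lowest of the series in replicate 2 of WT OI+PM. Neutrophil markers, of which 3 of 8 passed the filter (S100a8, S100a9 and Ngp), summed to between 5.98 and 6.59 in control, between 12.4 and 19.1 with PM and between 29.5 and 61.0 with OI+PM. With OI+PM the sums were mostly S100a8, which reached 60.5. S100a9 reached at most 3.31 and Ngp at most 2.56 in any library, so the sums do not show how these markers moved. Whether these shifts had a part in the results below was not tested. In bulk RNA, fewer cells that express a gene and less of its RNA per cell cannot be told apart. The 2 WT OI+PM libraries and the 2 WT PM libraries differed from each other more than other pairs did, with a chi-square per degree of freedom of 58.5 and 27.3 against 2.61 to 8.32 in the other 4 groups. Across genes, which are not independent replicates, that difference followed exonic length with a Spearman's rho of -0.61 and -0.60.

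The sensors differed widely in level. Levels between genes are given as normalized CPM per kb of exon, where CPM are counts scaled to the library size, normalized by the TMM method. In WT control, Unc93b1, the chaperone that carries endosomal TLRs out of the endoplasmic reticulum, was the most abundant at 136.7 ± 0.724 per kb (mean ± SD, n = 2). Tlr7, the receptor for single-stranded RNA, stood at 46.1 ± 1.24 and the PYHIN DNA sensor Ifi204 at 29.0 ± 0.954. Mavs at 15.4 ± 0.531, Aim2 at 12.7 ± 0.721 and Dhx58 at 8.94 ± 0.0986 were intermediate. Ifih1 at 5.42 ± 0.0914 and Tlr3 at 4.86 ± 0.153 came next. Zbp1 at 1.44 ± 0.269 and Tlr9, the receptor for unmethylated CpG DNA, at 1.39 ± 0.148 were lowest and did not differ from each other beyond their spread. Tlr9 was the lowest and Unc93b1 the highest of the 10 in each of the 6 groups. With PM, Ifi204 rose to 52.5 ± 0.917 per kb in WT, level with Tlr7 at 48.2 ± 4.75 within the spread, and Dhx58 (15.5 ± 0.476) came level with Mavs (15.5 ± 0.0841). Both statements depend on the length used, since per kb of the longest transcript Ifi204 stood at 81.5 against 50.4 for Tlr7, and Dhx58 at 21 against 17.0 for Mavs. Reads of 50 bp were counted, and the PYHIN genes Aim2 and Ifi204 belong to a family of similar neighbours on chromosome 1, so their counts depend on how shared reads were assigned, which is not stated.

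**Figure D1:**
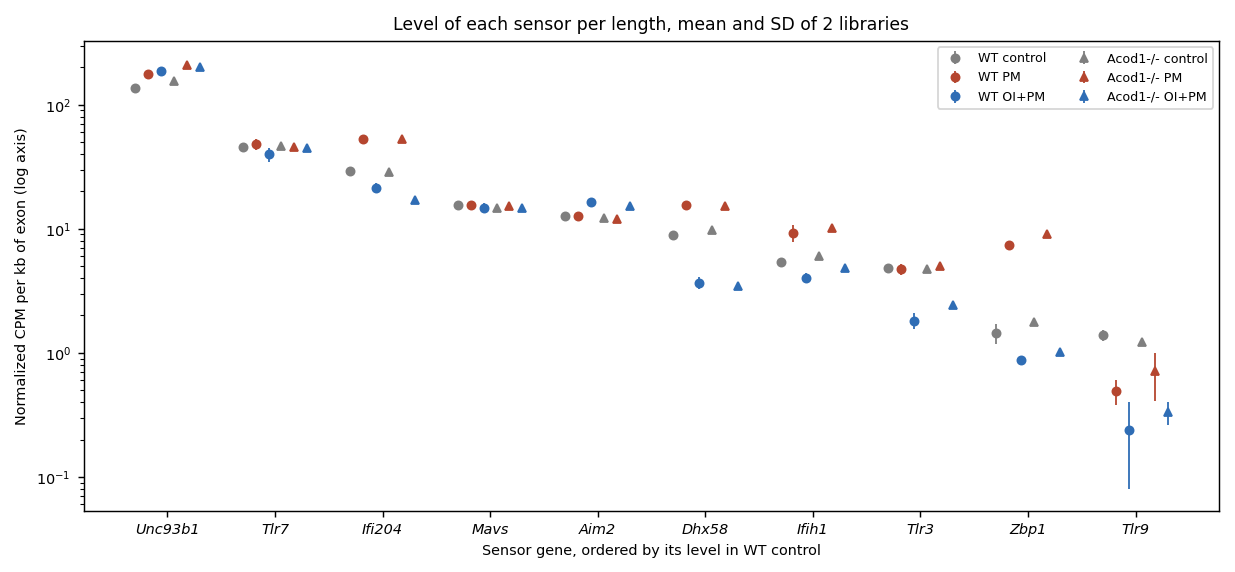
Normalized CPM per kb of exon (log axis) of each sensor in the 6 groups, as mean and SD of 2 libraries, with circles for WT and triangles for Acod1-/- and grey for control, red for PM and blue for OI+PM. Unc93b1 lies above and Tlr9 below the other sensors in every group, and Zbp1 spans the widest range, 10.3-fold between its highest and lowest group mean.

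With PM, some cytosolic and endosomal members rose and others did not pass the test. The question of this comparison was how PM alone alters transcription in macrophages. In WT BMDMs, 5 of the 10 were higher with PM than in control at an adjusted p of 0.05 or less (Ifih1, Dhx58, Zbp1, Ifi204 and Unc93b1), against 12.6% of all genes tested. Only Tlr9 of the 10 was lower, against 12.2% of all genes. In Acod1-/- BMDMs the same 5 were higher, against 12% of all genes, and 0 were lower by edgeR or by DESeq2, against 11.9%, with 1 (Tlr9) lower at an unadjusted p under 0.05. The median log2 fold change of the 10 was 0.22 in WT and 0.25 in Acod1-/-, beside 0.01 and -0.00 over all genes tested.

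**Figure D2:**
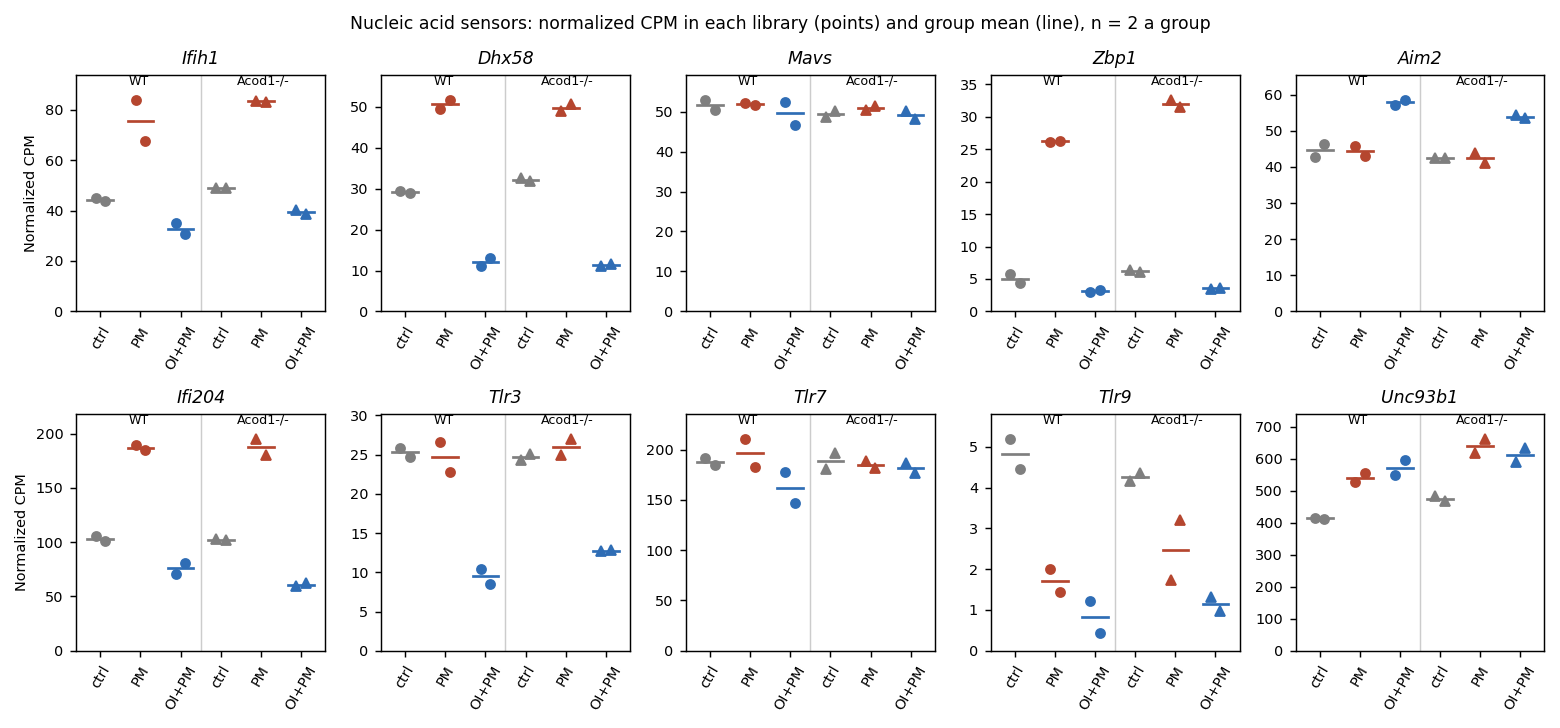
Normalized CPM of the 10 sensors in each of the 12 libraries (points, with circles for WT and triangles for Acod1-/-) and the mean of each group (line), on axes that start at 0. The PM libraries of Ifih1, Dhx58, Zbp1 and Ifi204 lie above both other groups of the same genotype, the OI+PM libraries of Aim2 lie above the others, and the control libraries of Tlr9 lie above the others.

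Zbp1, which binds left-handed Z-form RNA and DNA and can trigger necroptosis through RIPK3, had the largest change. Its gene lies at chr2:173206612-173218923 on the minus strand (GRCm38). Its normalized CPM was 5.75 and 4.4 in WT control, 26.1 and 26.3 in WT PM, 6.40 and 6.08 in Acod1-/- control and 32.6 and 31.5 in Acod1-/- PM. All PM libraries lay far above all control libraries, with no overlap in either genotype. It was 5.17-fold higher in WT (log2 fold change 2.37, SE 0.11, adjusted p = 5.88e-07 by edgeR) and 5.13-fold higher in Acod1-/- (2.36, SE 0.11, adjusted p = 4.34e-07).

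The cytosolic RNA receptors rose less. Ifih1 (chr2:62595798-62646255, minus strand) encodes MDA5, which binds long double-stranded RNA. It stood at 44.8 and 43.7 normalized CPM in WT control and 83.8 and 67.4 in WT PM, and at 49.0 and 49.0 in Acod1-/- control and 83.6 and 83.1 in Acod1-/- PM. The groups did not overlap, though the 2 WT PM libraries stood further apart than any other pair for this gene. The rise was 1.71-fold in WT (0.77 in log2, SE 0.10, adjusted p = 0.000432) and 1.70-fold in Acod1-/- (adjusted p = 0.000414). Dhx58 (chr11:100694884-100704271, minus strand) encodes LGP2, a RIG-I-like protein without signalling domains of its own that modulates the other receptors. It stood at 29.5 and 29.0 in WT control against 49.5 and 51.7 in WT PM, and at 32.6 and 31.9 against 49.0 and 50.6 in Acod1-/-. The groups did not overlap, and the rise was 1.73-fold in WT (adjusted p = 6.37e-05) and 1.55-fold in Acod1-/- (adjusted p = 0.000262). Exons of Dhx58 overlap those of Dhx58os, and the handling of strand is not stated, so its counts may hold reads of both.

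Mavs (chr2:131234063-131248025, plus strand), the adaptor through which MDA5 signals, did not follow them. Its 12 libraries lay between 46.6 and 52.9 normalized CPM, and its highest and lowest group means differed 1.06-fold. The log2 fold change with PM was 0.01 (SE 0.07) in WT and 0.04 (SE 0.07) in Acod1-/-, and neither passed the test.

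Of the DNA sensors, Ifi204 rose and Aim2 did not pass the test. Ifi204 (chr1:173747293-173766943, minus strand) is a mouse PYHIN protein linked to STING signalling. It stood at 105.6 and 100.8 normalized CPM in WT control against 189.3 and 184.7 in WT PM, and at 102.7 and 101.9 against 194.9 and 180.7 in Acod1-/-. Control and PM libraries were well apart in both genotypes, 1.81-fold in WT (adjusted p = 3.35e-05) and 1.84-fold in Acod1-/- (adjusted p = 2.23e-05). Aim2 (chr1:173350879-173466040, plus strand) binds DNA and assembles an inflammasome with ASC. It stood at 42.8 and 46.4 in WT control and 45.8 and 43.0 in WT PM, which overlap, with a log2 fold change of -0.01 (SE 0.07).

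Among the endosomal receptors, the carrier and the receptors went separate ways. Unc93b1 (chr19:3935186-3949340, plus strand) stood at 415.8 and 412.7 normalized CPM in WT control against 528.4 and 553.9 in WT PM, and at 482.9 and 467.8 against 618.7 and 660.9 in Acod1-/-. The groups of a genotype did not overlap, and the rise was 1.31-fold (adjusted p = 0.00194) and 1.35-fold (adjusted p = 0.000877). Tlr3 (chr8:45395665-45411080, minus strand), the receptor for double-stranded RNA, had a log2 fold change of -0.04 (SE 0.10) in WT and 0.07 (SE 0.10) in Acod1-/-. Exons of Tlr3 overlap those of Gm45542. Tlr7 (chrX:167304929-167330558, minus strand) had 0.06 (SE 0.10) and -0.03 (SE 0.10). None of these 4 values passed the test.

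Tlr9 (chr9:106222598-106226883, plus strand) was the one sensor that fell. Its normalized CPM was 5.18 and 4.45 in WT control, 2.00 and 1.44 in WT PM, 4.16 and 4.36 in Acod1-/- control and 1.73 and 3.19 in Acod1-/- PM, on raw counts of 50 to 111 in the PM libraries. Each PM library lay below each control library of its genotype, and the Acod1-/- PM pair was spread widely. In WT it was 2.79-fold lower (log2 fold change -1.48, SE 0.32, adjusted p = 0.00909). In Acod1-/- the value was -0.79 (SE 0.31, adjusted p = 0.0959) and did not pass. It passed there with no filter on low counts (adjusted p = 7.76e-05), with the compared groups alone (0.0113), with the replicate block after the numbers of both Acod1-/- PM libraries were exchanged (0.0245) and without replicate 2 of Acod1-/- PM (-1.29, adjusted p = 0.0473). Without replicate 1 of WT control or without replicate 2 of WT PM, the WT call was lost, at an adjusted p of 0.0685 and 0.0747. Tlr9 is known from plasmacytoid dendritic cells and B cells as well as macrophages. Of 7 plasmacytoid markers 3 passed the filter (Tcf4, Cox6a2 and Runx2). Klk1 was at 0 in every library, Siglech reached at most 0.0576 normalized CPM, and the summed list went from between 77.0 and 79.0 in WT control to between 49.6 and 56.0 in WT PM. Tcf4, at 27.5 to 83.7 over the libraries, was the largest part of that sum. Of 7 markers of conventional dendritic cells only Wdfy4 passed, and that sum went from at least 208.9 to between 142.5 and 177.5 in the same groups. Of 6 B cell markers only Cd79b passed, and that sum was between 2.70 and 3.64 in WT control and between 2.51 and 4.06 in WT PM, which overlap.

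OI given before PM was compared with PM alone, which asks how an added itaconate derivative alters the response to PM. Here 6 of the 10 sensors were lower in WT (Ifih1, Dhx58, Zbp1, Ifi204, Tlr3 and Tlr7), against 22.6% of all genes tested, and 1 was higher (Aim2), against 21.3%. In Acod1-/- 5 were lower (the same without Tlr7), against 20.6% of all genes, and Aim2 was again the 1 that was higher, against 13.9%. The median log2 fold change of the 10 was -1.11 in WT and -1.05 in Acod1-/-, beside 0.02 and -0.00 over all genes. This comparison shares its PM libraries with the one before, so the 2 are not independent.

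**Figure D3:**
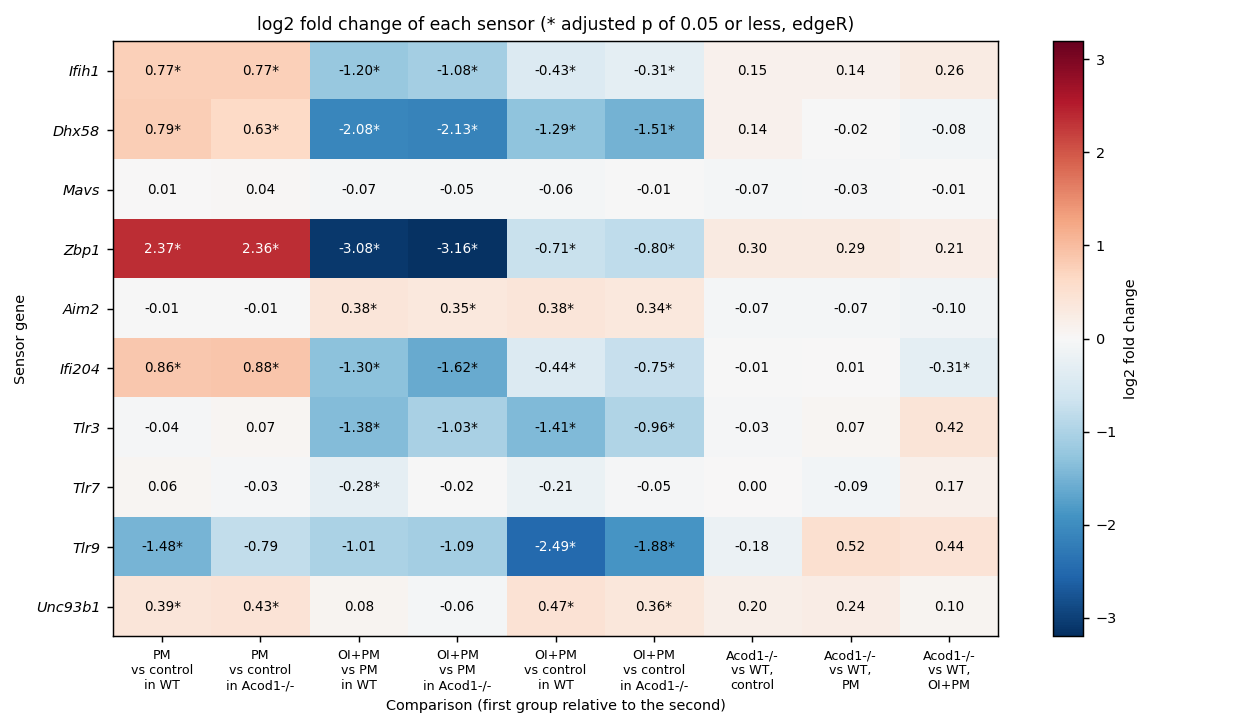
The log2 fold change of each sensor in 9 comparisons, from blue (lower) to red (higher), with an asterisk at an adjusted p of 0.05 or less by edgeR. The 2 columns of OI+PM against PM are blue for Ifih1, Dhx58, Zbp1, Ifi204 and Tlr3, and the last 3 columns, Acod1-/- against WT, hold 1 asterisk, at Ifi204 with OI+PM.

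Zbp1 showed the largest fall. It stood at 2.96 and 3.25 normalized CPM in WT OI+PM and at 3.52 and 3.63 in Acod1-/- OI+PM. Every one of these libraries was below every control library of either genotype. Against PM alone Zbp1 was 8.44-fold lower in WT (log2 fold change -3.08, SE 0.12, adjusted p = 3.45e-08 by edgeR) and 8.95-fold lower in Acod1-/- (adjusted p = 2.64e-08). Dhx58 stood at 11.1 and 13.0 in WT OI+PM and at 11.2 and 11.5 in Acod1-/- OI+PM. These libraries too lay below all control libraries, and the gene was 4.22-fold lower than with PM in WT (adjusted p = 3.37e-08) and 4.39-fold lower in Acod1-/- (adjusted p = 2.95e-08).

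Ifih1 and Ifi204 fell by somewhat more than they had risen. Ifih1 stood at 35 and 30.7 normalized CPM in WT OI+PM and at 40.3 and 38.5 in Acod1-/- OI+PM, 2.30-fold and 2.11-fold lower than with PM (adjusted p = 7.99e-06 and 1.77e-05). Ifi204 stood at 70.8 and 80.9 in WT OI+PM and at 59.7 and 62.2 in Acod1-/- OI+PM, 2.47-fold and 3.08-fold lower (adjusted p = 4.83e-07 and 1.06e-07). The OI+PM libraries of both genes lay below the control and PM libraries of their genotype.

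Tlr3 fell although PM alone had not changed it past the test. It stood at 25.9 and 24.7 normalized CPM in WT control, 26.5 and 22.8 in WT PM and 10.5 and 8.53 in WT OI+PM. In Acod1-/- the libraries were 24.4 and 25.1, 25 and 26.9, and 12.7 and 12.8 in the same order. Control and PM libraries overlapped, and all 4 OI+PM libraries lay below the other 8. The fall against PM was 2.60-fold in WT (log2 fold change -1.38, SE 0.11, adjusted p = 4.83e-06) and 2.04-fold in Acod1-/- (-1.03, SE 0.11, adjusted p = 3.82e-05).

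The other endosomal genes changed little or could not be resolved. Tlr7 stood at 210.3 and 182.8 normalized CPM in WT PM and 177.3 and 147.2 in WT OI+PM, which is -0.28 in log2 (SE 0.10, adjusted p = 0.0435). The call was lost without replicate 1 of WT PM or replicate 2 of WT OI+PM (adjusted p = 0.265 and 0.214), and with all libraries kept under RLE scaling (0.0538), a filter of 10 summed counts (0.0622) and the compared groups alone (0.255). In Acod1-/- the Tlr7 value was -0.02 (SE 0.10, adjusted p = 0.891). Tlr9 held 41 and 13 raw counts in WT OI+PM and 44 and 32 in Acod1-/- OI+PM. Each of these libraries was below each PM library, by -1.01 in log2 (SE 0.43, adjusted p = 0.0829) in WT and -1.09 (SE 0.38, adjusted p = 0.0501) in Acod1-/-. Neither passed in this edgeR fit, and both passed by DESeq2 (adjusted p = 0.0332 and 0.0196), without a filter on low counts (0.000244 and 6.50e-06) and with the exchanged replicate block (0.0278 and 0.0146). In Acod1-/- it also passed with the compared groups alone (0.00253), with length correction (0.0392), with length correction plus block (0.0413) and with total count scaling (0.0464). Without replicate 1 of WT OI+PM the WT value was -1.96 (adjusted p = 0.00808), and without replicate 1 of Acod1-/- PM the Acod1-/- value was -1.46 (adjusted p = 0.0212). Unc93b1 stood at 549.9 and 594.5 in WT OI+PM, overlapping WT PM, and its 0.08 (SE 0.06) in log2 did not pass the test.

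Aim2 rose. It stood at 57.2 and 58.6 normalized CPM in WT OI+PM and 54.3 and 53.5 in Acod1-/- OI+PM, against 45.8 and 43.0 in WT PM and 43.7 and 41.0 in Acod1-/- PM. All 4 OI+PM libraries were above the other 8 of the series. The rise against PM was 1.30-fold in WT (log2 fold change 0.38, SE 0.07, adjusted p = 0.00140) and 1.27-fold in Acod1-/- (0.35, SE 0.07, adjusted p = 0.00285). Fitted on the WT PM and OI+PM libraries alone, the WT adjusted p was 0.109. Mavs had a log2 fold change of -0.07 (SE 0.07) in WT and -0.05 (SE 0.07) in Acod1-/- and did not pass.

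Against control, OI+PM left most of these sensors below their starting level. Lower than control were 6 of the 10 in WT (Ifih1, Dhx58, Zbp1, Ifi204, Tlr3 and Tlr9), against 31.9% of all genes tested, and the same 6 in Acod1-/-, against 26.7%. Both counts include Tlr9, which passed the filter on low counts through control and PM libraries alone. The filter thus favoured its calls, which are no support beside these shares. Higher were Aim2 and Unc93b1 in both genotypes, 2 of the 10, against 33.6% of all genes in WT and 22.7% in Acod1-/-. The share of all genes called was so high in these comparisons that a count of 2 is near it or below it. The median over the 10 was -0.44 in WT and -0.53 in Acod1-/-, beside 0.02 and -0.01 over all genes.

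Dhx58 was 2.44-fold and Zbp1 1.63-fold lower than control in WT, and 2.84-fold and 1.74-fold lower in Acod1-/-. Tlr3 was 2.66-fold lower in WT and 1.94-fold lower in Acod1-/-. Ifi204 was 1.36-fold and 1.68-fold lower, and Ifih1 1.35-fold and 1.24-fold lower, in the same order. The Ifih1 call in Acod1-/- (adjusted p = 0.0273) was lost when any 1 of its 4 libraries was left out, at adjusted p values from 0.0732 to 0.141. Tlr9 was 5.62-fold lower in WT (log2 fold change -2.49, SE 0.37, adjusted p = 0.000281) and 3.68-fold lower in Acod1-/- (adjusted p = 0.00157). Its 4 OI+PM libraries lay between 0.440 and 1.32 normalized CPM, on 13 to 44 counts, all below the filter of 1.5 CPM. Tlr9 met that filter only through control and PM libraries, so the size of both folds is uncertain. The WT value rested on unequal libraries, since it was -3.44 without replicate 1 of WT OI+PM and -1.97 without replicate 2. The marker sums were also below control: in WT OI+PM the B cell list summed to between 1.05 and 1.20, the conventional dendritic list to between 105.4 and 148.7 and the plasmacytoid list to between 50.3 and 60.4. Tcf4 was the largest part of the plasmacytoid sum. Cox6a2 and Runx2 went the other way, each reaching its highest level of the series (6.06 and 20.7) in a WT OI+PM library. In Acod1-/- the B cell sum went from between 2.54 and 2.61 in control to between 0.924 and 1.20, the conventional dendritic sum from at least 201.2 to between 125.8 and 137.2, and the plasmacytoid sum from at least 90.8 to between 62.5 and 68.6. Their part in the Tlr9 result was not tested. Tlr7 in WT had -0.21 (SE 0.10, adjusted p = 0.0791) and did not pass, but passed without a filter on low counts (0.0456), with length correction (0.0357), with that correction plus block (0.0183), with total count scaling (0.00879) and without replicate 1 of WT OI+PM (0.00434). Aim2 was 1.30-fold and 1.27-fold higher and Unc93b1 1.38-fold and 1.29-fold higher. Scaled by total counts, Aim2 in WT was no longer called (log2 fold change 0.15, adjusted p = 0.0825).

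**Figure D4:**
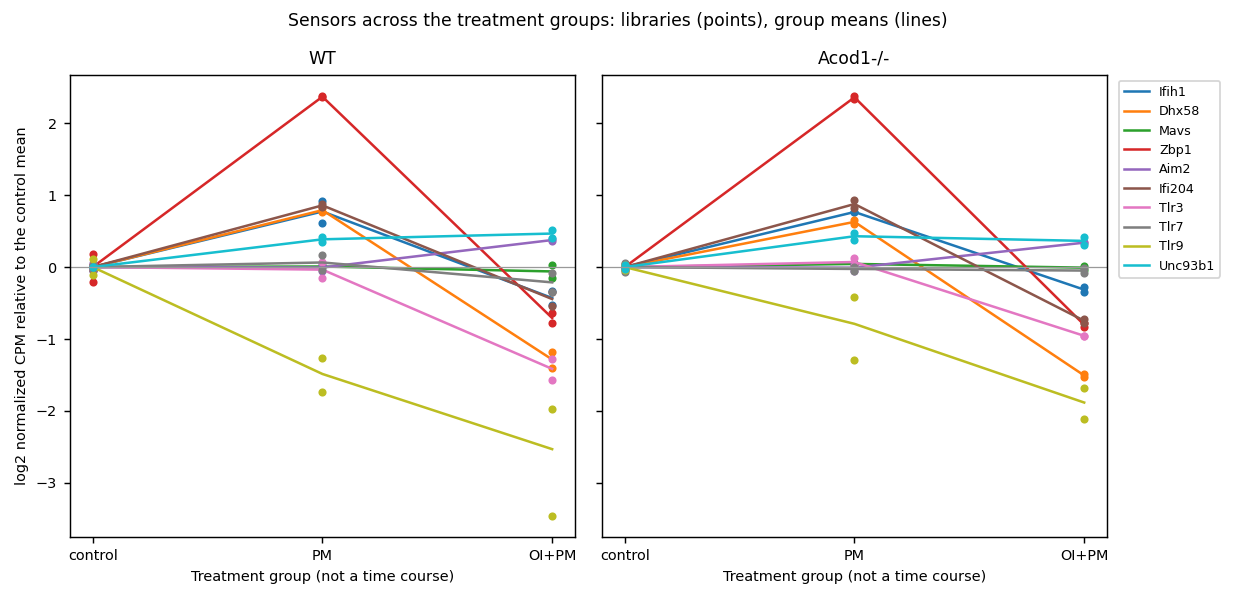
The log2 normalized CPM of each sensor relative to the control mean of its genotype, in control, PM and OI+PM, with points for libraries and lines through group means, for WT on the left and Acod1-/- on the right. Zbp1 goes up by 2.37 in WT with PM and ends below control with OI+PM, as do Dhx58, Ifi204 and Ifih1, while Tlr9 lies below control in both treated groups.

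The genotypes were compared within each treatment, which asks what the lack of endogenous itaconate changes. In control, 0 of the 10 sensors were called higher or lower in Acod1-/- by edgeR, against 0.891% of all genes higher and 0.935% lower. DESeq2 called 0 of the 10, against 307 of all 11228 genes. By edgeR 2 had an unadjusted p under 0.05 (Zbp1 and Unc93b1), against 1141 of all genes. With PM, 0 were called by edgeR, against 1.10% of all genes higher and 1.30% lower. DESeq2 called 1 (Unc93b1), against 434 of all 11228 genes. By edgeR 2 had an unadjusted p under 0.05 (Zbp1 and Unc93b1), against 1577 of all genes. With OI+PM, 0 were higher, against 2.51% of all genes, and 1 was lower (Ifi204), against 4.45%. DESeq2 called 2 there, Ifi204 and Tlr3, against 1321 of all 11228 genes. By edgeR 3 had an unadjusted p under 0.05 (Ifih1, Ifi204 and Tlr3), against 3281 of all genes.

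Unc93b1 stood higher in Acod1-/- than in WT by 0.20 (SE 0.06, adjusted p = 0.229) in log2 in control and 0.24 (SE 0.06, adjusted p = 0.0915) with PM. Its Acod1-/- libraries lay above the WT libraries in both of these treatments, and with OI+PM they overlapped. Zbp1 had 0.30 (SE 0.12, adjusted p = 0.400) in control and 0.29 (SE 0.10, adjusted p = 0.215) with PM, again without overlap. With 2 libraries a group, a lack of overlap sets these genes little apart. It also held in control for Ifih1, Dhx58, Mavs, Aim2 and Tlr9, and with OI+PM for Ifih1, Zbp1 and Aim2. Its share over all genes is not given here. Ifi204 with OI+PM was 1.24-fold lower in Acod1-/- (log2 fold change -0.31, SE 0.08, adjusted p = 0.0386). That call was lost without replicate 2 of WT OI+PM (adjusted p = 0.140) and without either Acod1-/- OI+PM library (0.244 and 0.160). Tlr3 with OI+PM had 0.42 (SE 0.11, adjusted p = 0.0530) and no overlap. It passed by DESeq2 (adjusted p = 0.0211), without a filter on low counts (0.00788) and with the exchanged replicate block (0.0228). It also passed with length correction (0.0238) and with that correction plus block (0.0242). For the other sensors and treatments the log2 fold change between genotypes lay between -0.18 (Tlr9, control) and 0.52 (Tlr9 with PM).

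The difference of the treatment effects between genotypes was tested as an interaction. For the effect of PM, 0 of the 10 sensors and 0% of all genes passed by edgeR, 0 of the 10 had an unadjusted p under 0.05, and DESeq2 called 0 of the 10 and 3 of all genes. Over all genes, 273 had an unadjusted p under 0.05. For Zbp1 the PM effect differed by -0.01 (SE 0.15), for Ifih1 by -0.01 (SE 0.14), for Ifi204 by 0.02 (SE 0.11) and for Dhx58 by -0.16 (SE 0.11). The Tlr9 effect differed by 0.70 (SE 0.45), so the call in WT and its lack in Acod1-/- do not show different effects. For the effect of OI, 0 of the 10 and again 0% of all genes passed by edgeR, 2 of the 10 (Ifi204 and Tlr3) and 717 of all genes had an unadjusted p under 0.05, and DESeq2 called 0 of the 10 and 34 of all genes. The fall of Ifi204 was larger in Acod1-/- by -0.32 (SE 0.11, adjusted p = 0.702) and that of Tlr3 smaller by 0.35 (SE 0.15, adjusted p = 0.774). Without replicate 1 of WT OI+PM, the Ifi204 interaction passed, at -0.41 (adjusted p = 0.0415).

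The other genes of the 3 sensing pathways and of the interferon response were read from lists, whose counts stand beside these shares of all genes tested. With PM, 12.6% were higher and 12.2% lower in WT, and 12% and 11.9% in Acod1-/-. With OI+PM against PM, 21.3% were higher and 22.6% lower in WT, and 13.9% and 20.6% in Acod1-/-. Of 27 tested partners of cytosolic RNA sensing, PM raised 14 and lowered 2 in WT, and 15 and 2 in Acod1-/-. Oasl1, an interferon-induced protein related to the oligoadenylate synthetases, was the largest rise in WT at 5.88-fold (log2 fold change 2.56, SE 0.14), with exons that overlap Gm13822. Ddx58, which encodes RIG-I and was named for its kinship with Ifih1 and Dhx58, rose 2.23-fold in WT. With OI+PM against PM, 15 of the 27 were lower and 3 higher in WT, and 14 and 1 in Acod1-/-. Oas2 had the largest fall in WT (-4.23, SE 0.16), from 48.2 and 40.5 normalized CPM to 2.34 and 2.40, and the RNA helicase Dhx33 the largest rise (0.35, SE 0.12). Ddx58 fell by 2.02 on the log2 scale.

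Of 23 tested partners of DNA sensing, PM raised 12 and lowered 0 in WT, and 11 and 0 in Acod1-/-. Ifi205, Ifi206 and Ifi213 are among those raised in both genotypes. They passed the filter on low counts only through the PM libraries, so the filter favoured their calls. The counts of 12 and 11 include these genes, whose calls are no support beside the shares of all genes. By the fitted values the PYHIN gene Ifi206 rose most in WT, from 0.695 and 0.382 normalized CPM in control to 8.48 and 7.35 with PM. It passed the filter on low counts only through the PM libraries, where it is high, so no fold is given and its rank is uncertain. Cgas, the enzyme that makes the messenger of STING on binding DNA, and Tmem173, which encodes STING, were named for their role and did not pass with PM in WT, at 0.02 (SE 0.13) and -0.09 (SE 0.10). Exons of Cgas overlap those of Gm8093. With OI+PM against PM, 12 of the 23 were lower and 1 higher in WT (Ddx41, 0.24, SE 0.09), and 15 were lower and 0 higher in Acod1-/-. Ifi205, Ifi206 and Ifi213 are again counted in both genotypes, here as lower, and the filter favoured these calls too. By the fitted values the PYHIN gene Ifi213 fell most in WT, from 4.09 and 3.14 normalized CPM to 0.150 and 0.0338. It too passed the filter only through the PM libraries, and its lowest levels rest on few counts, so no fold is given. Cgas fell by 0.96 and Tmem173 by 0.64 on the log2 scale in WT. Reads of PYHIN genes, Ifi204 among them, may be shared between family members, so single values in the family are uncertain.

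Of 26 tested partners of endosomal TLRs, PM raised 11 and lowered 3 in WT, and 9 and 3 in Acod1-/-, where the counts lowered are near the shares of all genes. The RNase gene Rnaset2a had the largest rise in WT (0.74, SE 0.19), but it has a close copy, Rnaset2b, and its reads may be split between them. Lgmn, a protease that cleaves TLRs in endosomes, had the largest fall (-0.30, SE 0.06). With OI+PM against PM, 8 of the 26 were lower and 5 higher in WT, and 8 and 3 in Acod1-/-, and the counts that were higher are near the shares of all genes. Pld4, an endosomal nuclease that degrades TLR9 ligands, fell most in WT (-1.10, SE 0.08), from 279.9 and 331.3 normalized CPM to 143.5 and 142.2. Atp6v0d2, a subunit of the proton pump that acidifies endosomes, rose most (0.67, SE 0.05).

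Of 21 tested genes of the type I interferon response, PM raised 17 and lowered 0 in each genotype, with a median log2 fold change of 2.12 in WT and 1.74 in Acod1-/-. The list held 25 genes, and the interferon genes Ifnb1, Ifna2 and Ifna4, as well as Socs1, had too few counts to be tested. The chemokine gene Cxcl10, whose exons overlap Art3, had the largest fitted rise in WT. It went from 0.855 and 1.1 normalized CPM in control to 9.60 and 15.5 with PM. It also passed the filter only through the PM libraries, so its rank is uncertain. The counts and medians of this list include Cxcl10 for PM and for OI+PM, and the filter favoured its calls. With OI+PM against PM, 18 of the 21 were lower and 0 higher in each genotype, with medians of -2.46 and -2.80. Rtp4, whose exons overlap Gm45338, fell most in WT (-6.59, SE 0.14), from 81.1 and 78.7 normalized CPM to 0.988 and 0.643. Between genotypes with PM, 0 of the RNA partners and 0 of the endosomal partners were called, 1 DNA partner was higher in Acod1-/- (the PYHIN gene Ifi205, 0.64, SE 0.12), and 1 interferon gene was higher (the receptor subunit Ifnar1, 0.36, SE 0.07). None of the 4 lists held a gene lower in that comparison, in which 1.10% of all genes were higher and 1.30% lower. In control, 1 RNA partner (Oasl2) and 1 interferon gene (Rtp4, 1.89-fold, adjusted p = 0.00119) were higher in Acod1-/-, against 0.891% of all genes. With OI+PM, 2 RNA partners (Tank and Oasl2), 2 DNA partners (Mndal and Samhd1), 1 endosomal partner (Irak4) and 2 interferon genes (Ifnar1 and Rtp4) were higher, against 2.51% of all genes. The endosomal partners Slc15a3, Pld3 and Irak2 were lower, against 4.45%.

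**Figure D5:**
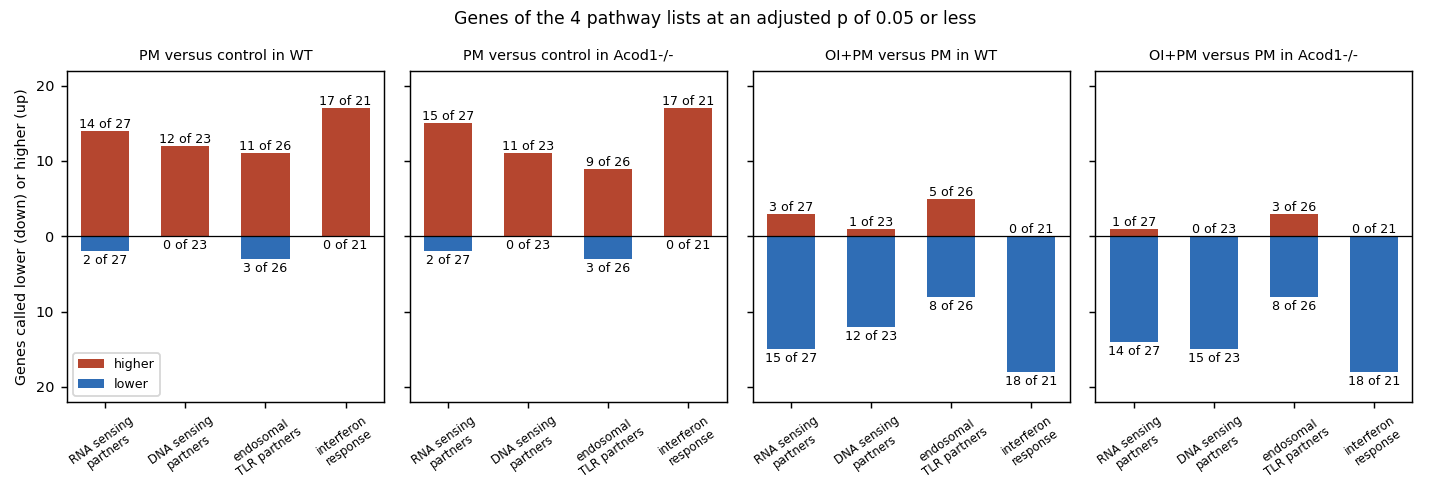
The number of genes of each pathway list called higher (red, upward) or lower (blue, downward) at an adjusted p of 0.05 or less, with the number tested, for PM against control and OI+PM against PM in each genotype. The 21 interferon response genes show 17 higher with PM and 18 lower with OI+PM in both genotypes, and the endosomal TLR partners show the fewest calls per gene tested for OI+PM against PM in WT. The numbers include Ifi205, Ifi206, Ifi213 and Cxcl10, which passed the filter only through the PM libraries.

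The sensors also differed in which genes they resembled. Likeness was measured as the root mean square difference of log2 normalized CPM, each gene centred on its own mean, over the 12 libraries, for members whose group means span at least 2-fold. The gene nearest to Zbp1 was Irf7 (0.159), the interferon regulatory factor, followed by Gbp2 (0.247), a guanylate-binding protein. Nearest to Ifih1 were Parp12 (0.0782) and Nlrp3 (0.106), and nearest to Dhx58 were Il1rn (0.0669) and Cfp (0.176). Lgals9 (0.122) and Lgals3bp (0.133) were nearest to Ifi204, Nbeal2 (0.109) and Acot11 (0.112) to Tlr3, and Ulbp1 (0.249) and Alms1 (0.266) to Tlr9. Among the sensors themselves, Mavs and Tlr7 were the closest pair (0.0887), both nearly flat, and Ifih1 and Ifi204 the closest pair among those called in both treatment steps (0.246). Zbp1 and Tlr9 were the farthest apart (1.5). These distances describe 12 libraries that share 3 treatments, so they carry no test.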

How the data were processed

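The authors deposited 1 table of raw, not normalized counts for each library. Per the submitters' processing notes, the authors checked single-end reads of 50 bp with FastQC 0.11.5, mapped them to GRCm38 with STAR 2.5.3a, ran Picard 2.9.0 and counted with featureCounts. The annotation release, the strand setting and the handling of multiply mapped reads are not given in the sources used here. Nothing states that the 2 libraries of a group came from separate mice or cultures, so p-values measure the spread between these libraries, which may be technical. Of 48795 identifiers, 48349 matched GENCODE M21 (GRCm38) without version and 41341 with it. That annotation gave positions, overlaps and exonic lengths.

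Genes entered the tests if 2 or more of the 12 libraries had over 1.5 CPM (11228 genes). All 12 libraries were fitted with 6 group means, TMM scaling and edgeR 4.0.16 (quasi-likelihood F test, R 4.3.3), and p-values were Benjamini-Hochberg adjusted over all genes tested. Every adjusted p is from this fit unless DESeq2 1.42.0 is named. SE is the size of the log2 fold change over the square root of F. The script was tested on simulated data. Tlr9 was above the filter in 7 libraries and the other members in 12. The members and gene lists were chosen with earlier results of these data known. From each pathway list the called gene with the largest rise and the largest fall was named in 3 comparisons (PM against control and OI+PM against PM in WT, and Acod1-/- against WT with PM). A gene that this rule named and a marker gene are not reported here. The 2 genes most like a member were named among genes averaging at least 5 CPM, and Ddx58, Cgas and Tmem173 were added for their role. The list genes named between genotypes in control and with OI+PM were chosen after their values were seen. Alternatives were other scalings, filters, tools and fits, a replicate block, a correction for gene length and leaving out each library.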

Additional observations from a re-analysis of the deposited data

How the results depend on the processing

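The calls of Ifih1, Dhx58, Zbp1, Ifi204 and Unc93b1 with PM, and of Ifih1, Dhx58, Zbp1, Ifi204 and Tlr3 for OI+PM against PM, kept their direction and passed in both genotypes under every alternative fit and without each library. A further threshold of 2-fold left 2 of 6 calls with PM in WT, 1 of 5 in Acod1-/-, 5 of 7 for OI+PM against PM in WT, 5 of 6 in Acod1-/-, 3 of 8 for OI+PM against control in WT, 2 of 8 in Acod1-/- and 0 of 1 for Acod1-/- against WT with OI+PM. For Acod1-/- against WT, 0 calls in control became 2 (Ifih1 and Unc93b1) when the compared groups were fitted alone, and 0 with PM became 1 (Unc93b1) without a filter on low counts, with a correction for gene length, with that correction and the replicate block, and with DESeq2. The 1 call with OI+PM became 0 with total count scaling, with a filter of 10 summed counts and with the compared groups alone, 2 without a filter, with the replicate block after the numbers of both Acod1-/- PM libraries were exchanged, with length correction plus block and with DESeq2, and 3 with length correction. It ranged from 0 to 4 when 1 library was left out, with 4 without replicate 1 of WT OI+PM, and the interaction for OI ranged from 0 to 1. The cause was not tested. Same-numbered libraries did not deviate together in every comparison (correlations from -0.41 to 0.73), so the numbers were taken as names. Nothing in the labels calls for exchanging the numbers of the Acod1-/- PM libraries, so a call gained with that block adds little. The calls of Tlr9 and Tlr3 gained with it did not pass with the block as numbered. The replicate block gave 6, 5, 7, 6, 8 and 8 calls for the 6 treatment comparisons, 0, 0 and 1 between genotypes and 0 and 0 for the interactions, as the fit without it did. Total count scaling took the median of all genes for OI+PM against control in WT from 0.02 to -0.20, took the share of higher calls for OI+PM against PM in WT from 48.5% to 29.9%, and added Mavs (-0.28) and Tlr7 (-0.43) as calls for OI+PM against control in WT. Tlr9 held as few as 13 counts in a library, and what depth contributed to its calls was not tested. The counts for OI+PM against control include Tlr9, whose calls there the filter favoured.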
